A study of Mus musculus with 7 samples.

Results

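The levels of 9 genes of gastrulation were followed through the 7 libraries of the series: *T*, *Eomes*, *Mixl1*, *Gsc*, *Lhx1*, *Evx1*, *Foxa2*, *Cer1* and *Mesp1*. They were chosen by name, with earlier results of these data known, as a set of 9 among the 29267 genes of the tables. The names were matched by symbol to Ensembl identifiers, and all 9 were found. Gastrulation is the stage at which cells of the epiblast pass through the primitive streak and become mesoderm or definitive endoderm. Nodal and Wnt signals start it in the posterior epiblast, secreted inhibitors from the anterior visceral endoderm hold it back at the opposite pole, and the cells between both lineages are called mesendoderm. Naive pluripotent cells resemble the epiblast before implantation, whereas primed cells resemble the epiblast shortly before or during gastrulation and can express genes of the streak at a low level.

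The study reprogrammed mouse embryonic fibroblasts (MEFs) and asked how the culture medium acts on the cells that result. The OG2 MEFs carried an Oct4GFP transgene, a green fluorescent reporter driven by regulatory DNA of *Oct4*, and received *Oct4*, *Klf4*, *Sox2* and *c-Myc* by retrovirus. On day 15, at passage 0, cells grown in mES medium (with serum, LIF and vitamin C) or in 5C medium (serum-free, with N2, bFGF, LIF and vitamin C) were sorted by the reporter, which gave mES-Oct4GFP+ and mES-Oct4GFP- cells from the one medium and 5C-Oct4GFP+ and 5C-Oct4GFP- cells from the other. Other 5C-Oct4GFP+ cells were converted in naive medium, with LIF, the GSK3 inhibitor CHIR99021 and the MEK inhibitor PD0325901, or in primed medium. The last library, R1 ESCs-primed, came from R1, an established line of mouse embryonic stem cells without the reporter or the viruses, turned to the primed state. Primed medium held bFGF and activin A, a ligand that uses the Nodal receptors, and by the methods the R1 cells were kept afterwards with CHIR99021 and the tankyrase inhibitor IWR-1 in their place. Whether the converted primed cells were kept in the same way was not clear from the sources used here. The labels give 20 passages for both converted libraries and for R1 ESCs-primed. For the converted cells, one figure legend of the study gives a culture of days and then 20 more passages, and another gives the days alone. The time in each medium is thus not certain. The converted primed cells had lost GFP fluorescence by the account of the study. Each group was 1 library of pooled cells, so no spread between cultures can be estimated and no test between groups was made.

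Levels are given as TPM, an abundance scaled to the same total in every library, which allows for gene length. The estimated counts summed to between 6108252 and 11496615 per library, and for the median gene length 1 read amounted to 0.0950 to 0.181 TPM. The pluripotency markers *Pou5f1* and *Sox2* were above 81 TPM in all 7 libraries. In the 6 libraries of OG2 cells, reads of the viral copies and of the genes themselves cannot be told apart. The other markers of that list varied more. *Nanog* ran from 17.1 TPM in mES-Oct4GFP- cells to 735 TPM in the naive library. *Dppa5a* ran from 0.87 TPM in 5C-Oct4GFP+ (primed) to 4714 TPM in 5C-Oct4GFP+ cells. *Utf1* ran from 19.25 TPM in mES-Oct4GFP- cells to 1034 TPM in 5C-Oct4GFP+ cells. The labels give MEF as the cell type of the OG2 libraries, which names the cells of origin. The 7 naive markers summed to 1735 TPM in mES-Oct4GFP+ cells, to 1521 TPM in the naive library and to 871 TPM in 5C-Oct4GFP+ cells, and to at most 75.9 TPM in the other 4 libraries. The 5 primed markers summed to 1300.3 TPM in 5C-Oct4GFP+ (primed) and 1180.1 TPM in R1 ESCs-primed, against 616 TPM in 5C-Oct4GFP+ and between 93.4 and 197 in the other 4. The 6 fibroblast markers were at 481 TPM in mES-Oct4GFP- cells, 236 TPM in 5C-Oct4GFP- cells, 183 TPM in R1 ESCs-primed, 66.1 TPM in 5C-Oct4GFP+ (primed) and at most 9.55 TPM in the 3 other libraries. By the methods the R1 cells were induced on feeder fibroblasts, and the part of such cells in any value was not tested. In such bulk RNA, a larger share of cells expressing a gene and more RNA per cell cannot be told apart.

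Promoter DNA is shown for 3 members, because *T* and *Mesp1* share a motif and differ widely in RNA level, and because *Cer1* was the most abundant member. The RefSeq tables (GRCm38.p6) matched 8 of the 9 members, with 10 windows of 250 bases before a transcription start. The windows were searched on both strands for CTTTGA, the core bound by TCF/LEF, the DNA-binding partners of β-catenin in Wnt signalling. They were also searched for GGTGTGA, from the site of T-box factors such as T and Eomes, and for AATCCACA, the site of FOXH1, a partner of Smads in Nodal signalling. CTTTGA was found in 13.8% of all 32851 windows of this length, GGTGTGA in 3.33% and AATCCACA in 0.718%. *T* had 1 match to CTTTGA, on the minus strand 234 bases before the start, and *Mesp1* had 2, at 72 bases on the minus strand and 31 bases on the plus strand of the gene. The *Mesp1* start is that of RefSeq. By the GENCODE coordinates used below, *Mesp1* reaches 79793788, within this window, so both of its matches lie inside the gene by that annotation. No other member window held any of the 3 motifs, which says only that these letters are not in these windows. *T* is at chr17:8434173-8434422 on the + strand, *Mesp1* at chr7:79793591-79793840 on the - strand and *Cer1* at chr4:82885152-82885401 on the - strand. Each is written 5′ to 3′ along its gene, with CTTTGA or its reverse complement in capitals.
T: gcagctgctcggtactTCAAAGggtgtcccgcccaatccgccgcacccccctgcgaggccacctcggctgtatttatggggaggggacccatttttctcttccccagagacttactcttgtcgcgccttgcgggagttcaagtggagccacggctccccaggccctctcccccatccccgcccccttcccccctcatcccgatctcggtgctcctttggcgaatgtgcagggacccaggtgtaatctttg
Mesp1: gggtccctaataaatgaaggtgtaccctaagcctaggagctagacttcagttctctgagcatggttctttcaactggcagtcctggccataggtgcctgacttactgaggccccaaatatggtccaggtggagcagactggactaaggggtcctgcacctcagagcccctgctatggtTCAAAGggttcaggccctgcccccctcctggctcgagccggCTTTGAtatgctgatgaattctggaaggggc
Cer1: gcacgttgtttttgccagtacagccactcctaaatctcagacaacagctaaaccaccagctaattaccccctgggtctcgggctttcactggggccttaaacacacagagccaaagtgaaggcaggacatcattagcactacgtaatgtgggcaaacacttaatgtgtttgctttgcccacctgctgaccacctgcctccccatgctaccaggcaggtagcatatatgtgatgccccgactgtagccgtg

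Of the 9 genes, 7 were high in both primed libraries and low elsewhere, *Evx1* followed another order and *Mesp1* was close to silent in every library. The summed level of the 9 genes was 1072 TPM in 5C-Oct4GFP+ (primed) and 1012 TPM in R1 ESCs-primed. It was 77.3 TPM in mES-Oct4GFP- cells, 43.7 TPM in 5C-Oct4GFP- cells, 29.1 TPM in 5C-Oct4GFP+ (naive), 16.8 TPM in mES-Oct4GFP+ cells and 10.8 TPM in 5C-Oct4GFP+ cells. The number of members at 1 TPM or more was 8 in each primed library, 6 in each Oct4GFP- library, 3 in mES-Oct4GFP+ as in the naive library, and 2 in 5C-Oct4GFP+ cells. The lowest sum was thus found in the cells from which the converted primed cells were derived.

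**Figure D1:**
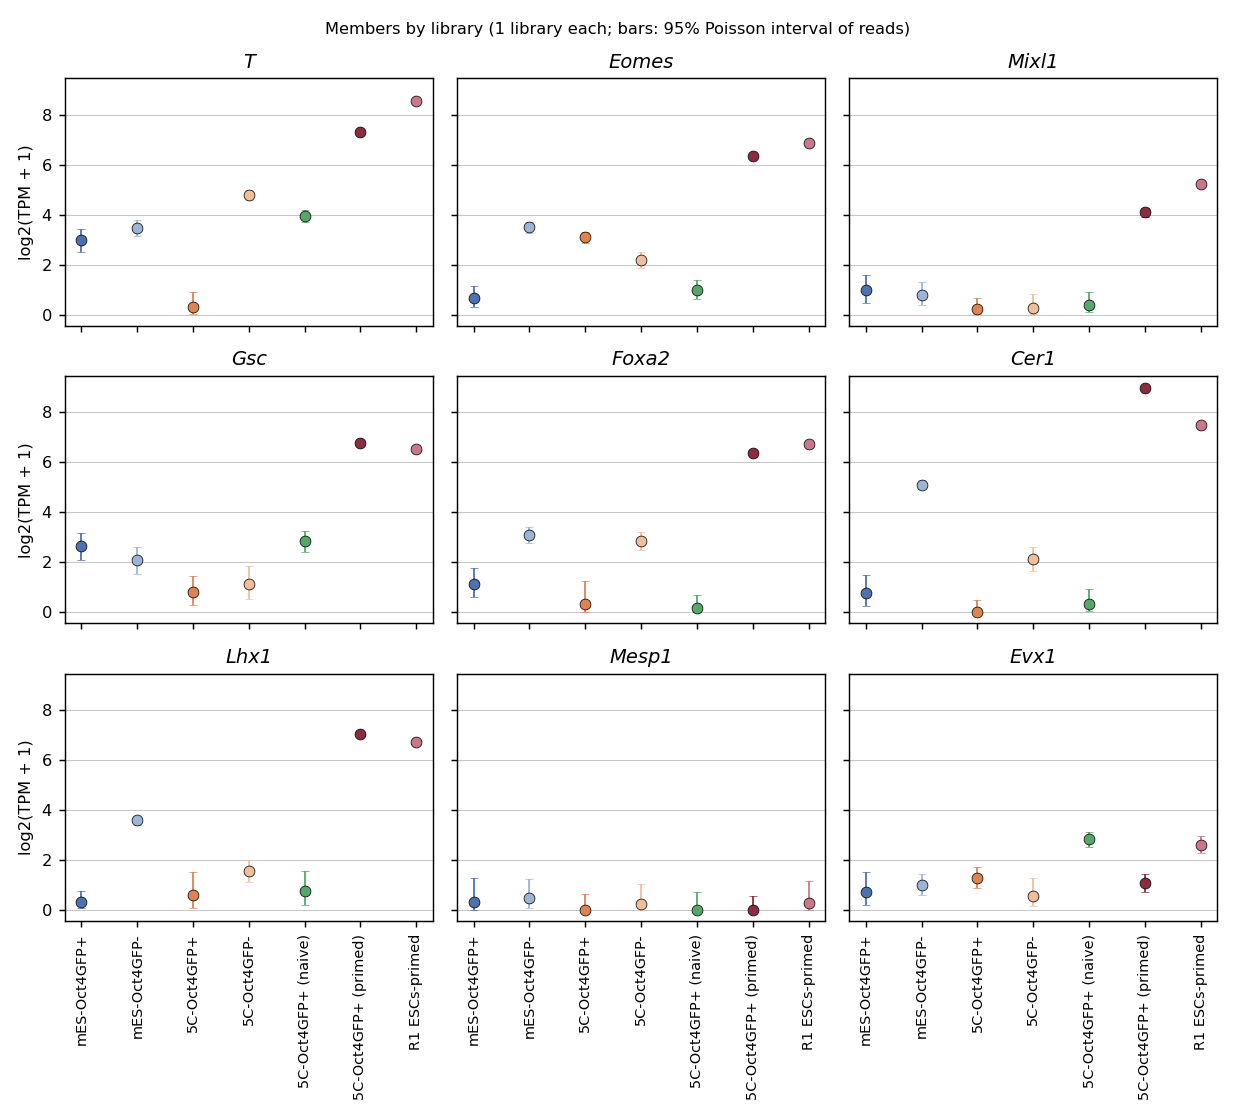
Level of each of the 9 genes in the 7 libraries, as log2(TPM + 1) on a shared axis. Each point is 1 library and the bars are 95% Poisson intervals of the read count. The 2 points at the right are the primed libraries. *T* in 5C-Oct4GFP+ (0.24 TPM) and *Cer1* in 5C-Oct4GFP+ (0.00 TPM) are the lowest points of their panels, and *Evx1* peaks at 6.08 TPM in the naive library.

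*T* (ENSMUSG00000062327, chromosome 17, 8434423 to 8442496, + strand, GRCm38), brachyury or Tbxt, is a T-box transcription factor of the streak, nascent mesoderm and notochord. Its level was 374 TPM in R1 ESCs-primed, 155 TPM in 5C-Oct4GFP+ (primed), 26.6 TPM in 5C-Oct4GFP- cells, 14.5 TPM in 5C-Oct4GFP+ (naive), 9.96 TPM in mES-Oct4GFP- cells and 6.93 TPM in mES-Oct4GFP+ cells, and the lowest value was 0.24 TPM, in 5C-Oct4GFP+ cells. The order had a gap at the bottom, since 5C-Oct4GFP+ held 2 reads (95% Poisson interval 0.029 to 0.867 TPM) and every other library at least 32. Adjacent libraries differed beyond counting error except mES-Oct4GFP- and mES-Oct4GFP+, with a ratio of 1.44 (95% interval 0.93 to 2.26). These intervals, here and below, cover the counting of reads alone and not the spread between cultures.

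*Eomes* (ENSMUSG00000032446, chromosome 9, 118478212 to 118486132, + strand) encodes a second T-box factor, which acts downstream of Nodal in mesendoderm and also in the trophoblast. It was at 115 TPM in R1 ESCs-primed, 81.2 TPM in 5C-Oct4GFP+ (primed), 10.3 TPM in mES-Oct4GFP- cells, 7.49 TPM in 5C-Oct4GFP+ cells, 3.54 TPM in 5C-Oct4GFP- cells, 0.97 TPM in 5C-Oct4GFP+ (naive) and 0.60 TPM in mES-Oct4GFP+ cells. *Eomes* thus made up most of the members' small total in 5C-Oct4GFP+ cells, where *T* was lowest. The naive and mES-Oct4GFP+ levels did not differ beyond counting error, with a ratio of 1.62 (95% interval 0.63 to 4.65). An antisense gene that is not in the tables overlaps 574 bases of the *Eomes* locus, and without strand information the reads of both cannot be told apart.

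*Mixl1* (ENSMUSG00000026497, chromosome 1, 180693043 to 180697034, - strand) encodes a paired-type homeobox factor of the streak. It was at 36.5 TPM in R1 ESCs-primed and 16.1 TPM in 5C-Oct4GFP+ (primed), with 312 and 225 reads. In the other 5 libraries it lay between 0.16 and 0.95 TPM, on 2 to 7 reads each, and no 2 neighbours among these differed beyond counting error.

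*Gsc* (ENSMUSG00000021095, chromosome 12, 104471209 to 104473330, - strand) and *Lhx1* (ENSMUSG00000018698, chromosome 11, 84518284 to 84525535, - strand) encode homeobox factors of the anterior streak, the organizer region that gives prechordal and axial mesoderm. *Gsc* was at 107 TPM in 5C-Oct4GFP+ (primed), 92.5 TPM in R1 ESCs-primed, 6.20 TPM in the naive library, 5.28 TPM in mES-Oct4GFP+ cells, 3.23 TPM in mES-Oct4GFP- cells, 1.18 TPM in 5C-Oct4GFP- cells and 0.73 TPM in 5C-Oct4GFP+ cells. *Lhx1* was at 131 TPM in 5C-Oct4GFP+ (primed), 104 TPM in R1 ESCs-primed, 10.9 TPM in mES-Oct4GFP- cells, 1.93 TPM in 5C-Oct4GFP- and between 0.24 and 0.67 TPM, on 2 to 3 reads, in the other 3 libraries. Both were slightly higher in the converted primed cells than in R1 ESCs-primed, by 1.16-fold (95% interval 1.03 to 1.31) for *Gsc* and 1.27-fold (1.18 to 1.36) for *Lhx1*. They parted in the sorted cells, where *Lhx1* was higher in mES-Oct4GFP- than in mES-Oct4GFP+ cells and *Gsc* was not.

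*Foxa2* (ENSMUSG00000037025, chromosome 2, 148042877 to 148046969, - strand) encodes a forkhead factor needed for the node, notochord and definitive endoderm. It was at 106 TPM in R1 ESCs-primed, 82.9 TPM in 5C-Oct4GFP+ (primed), 7.54 TPM in mES-Oct4GFP- cells, 6.22 TPM in 5C-Oct4GFP- cells, 1.20 TPM in mES-Oct4GFP+ cells, 0.25 TPM in 5C-Oct4GFP+ cells and 0.11 TPM in the naive library. The last values rest on 1 read each, and the 2 Oct4GFP- libraries did not differ beyond counting error, with a ratio of 1.21 (95% interval 0.82 to 1.79).

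*Cer1* (ENSMUSG00000038192, chromosome 4, 82881751 to 82885148, - strand) encodes Cerberus-like 1, a secreted antagonist of Nodal and BMP made by anterior visceral endoderm and early definitive endoderm. It was at 497 TPM in 5C-Oct4GFP+ (primed), 178 TPM in R1 ESCs-primed, 33.2 TPM in mES-Oct4GFP- cells, 3.38 TPM in 5C-Oct4GFP- cells, 0.72 TPM in mES-Oct4GFP+ cells and 0.26 TPM in the naive library. No read was assigned to it in 5C-Oct4GFP+ cells, in which the level of 3 reads was 0.315 TPM. *Cer1* was the highest member in 2 libraries, 5C-Oct4GFP+ (primed) and mES-Oct4GFP-.

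*Evx1* (ENSMUSG00000005503, chromosome 6, 52313498 to 52318378, + strand) encodes a homeobox factor of the posterior streak. It was at 6.08 TPM in the naive library, 5.08 TPM in R1 ESCs-primed, 1.43 TPM in 5C-Oct4GFP+ cells, 1.08 TPM in 5C-Oct4GFP+ (primed), 0.97 TPM in mES-Oct4GFP- cells, 0.63 TPM in mES-Oct4GFP+ cells and 0.48 TPM in 5C-Oct4GFP- cells. The naive and R1 ESCs-primed levels did not differ beyond counting error (ratio 1.20, 95% interval 0.82 to 1.75), and neither did any neighbours among the lower 5. *Evx1* was therefore the only member with a naive level above the converted primed level. The antisense gene *Evx1os* overlaps 1335 bases of the locus and was listed at 0.08 to 1.92 TPM, with its highest values, 1.92 and 1.19 TPM, in the same 2 libraries.

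*Mesp1* (ENSMUSG00000030544, chromosome 7, 79792241 to 79793788, - strand) encodes a basic helix-loop-helix factor of nascent mesoderm that leaves the streak, including the heart precursors. It held 0, 1 or 2 reads in every library, with a highest level of 0.38 TPM in mES-Oct4GFP-. In 5C-Oct4GFP+ (primed) no read was found, and the level of 3 reads was 0.397 TPM, and in R1 ESCs-primed 1 read gave 0.22 TPM. At this depth *Mesp1* was not detectable above that level in cells where *T* was at 155 and 374 TPM.

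The 2 primed libraries together held between 89.5% and 95.8% of the summed TPM of *T*, *Eomes*, *Mixl1*, *Gsc*, *Foxa2*, *Cer1* and *Lhx1* over the 7 libraries. Their share was 39.1% for *Evx1* and 21.1% for *Mesp1*. The primed genes still fell into different profiles. Likeness was measured as the summed minimum of 2 genes' profiles over the 7 libraries, each profile being the 7 TPM values divided by their sum, among 13566 other genes with at least 5 TPM in 1 library or more. It is a description over 7 points that share their libraries. *T* was most like *Apln* (93.7%), which encodes the ligand apelin, and *Mixl1* (93.5%), and *Mixl1* was most like the matrix metalloproteinase genes *Mmp3* (96.2%) and *Mmp10* (94.5%). *Eomes* and *Foxa2* both had *Fgf8* as their nearest gene (96.6% and 97.6%), followed by *Foxa2* for *Eomes* (94.7%) and by *Lefty1* for *Foxa2* (95.8%). *Gsc* was nearest to *Lhx1* (93.8%) and then to *Calcr* (92.8%), and *Lhx1* was nearest to its antisense neighbour *Lhx1os* (96.1%) and to *Add2* (95.1%). *Cer1* was nearest to *1110017D15Rik* (97.4%) and *Cfap299* (93.9%), with levels of 15.8 against 5.51 TPM and of 7.59 against 3.31 TPM in the converted primed cells and R1 ESCs-primed. *Evx1* had no close partner, and its nearest genes were *Ucma* (80.1%) and *Nefm* (79.5%). *T* and *Cer1* shared 53.8% of their profiles, against 93.5% for *T* and *Mixl1*. Because most of each of these profiles lay in the 2 primed libraries, such likeness mainly follows the ratio between them. The ratio of 5C-Oct4GFP+ (primed) over R1 ESCs-primed was 0.42 for *T*, 0.44 for *Mixl1* and 2.78 for *Cer1*.

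Differences between 2 libraries were taken on log2(TPM + 1), a scale on which weakly expressed genes change less than in TPM, and a gene was counted as higher or lower at 2-fold or more on this scale with at least 1 TPM in either library. Beside the counts of members, and beside the counts over the whole wider list introduced below, stands the share of all genes tested that were counted in that direction by the same rule. The shares are over genes with at least 1 TPM in either library, whereas the counts are out of all matched genes. A role with few genes at that level can therefore not be read directly against the shares.

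**Figure D2:**
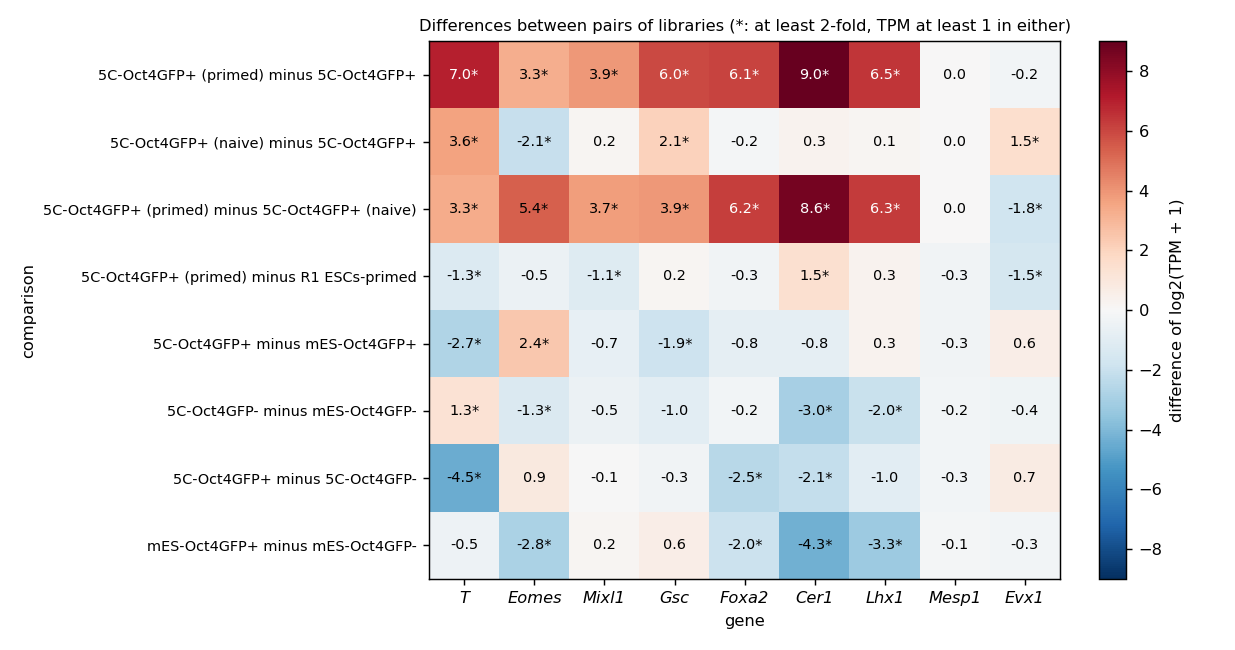
Difference of log2(TPM + 1) for the 9 genes (columns) in the 8 pairs of libraries (rows), red for higher and blue for lower in the library named first. Stars mark differences of at least 2-fold with at least 1 TPM in either library. The top row and the row below the naive conversion, which hold the converted primed cells against 5C-Oct4GFP+ cells and against the naive library, each carry 7 red stars, and no gene has a star in the bottom 2 rows with a positive difference.

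The primed conversion asked how far 5C-Oct4GFP+ cells moved toward the primed state. In 5C-Oct4GFP+ (primed) against 5C-Oct4GFP+ cells, 7 of the 9 members were higher and none was lower, against 13.7% of 15067 genes tested that were higher and 16.1% that were lower. *Mesp1* did not reach 1 TPM, and *Evx1* was at 1.08 against 1.43 TPM (ratio 0.76, 95% interval 0.37 to 1.55). *Eomes*, the only one of the 7 with many reads in the starting cells, was 10.8-fold higher (9.15 to 12.9). *Gsc* was 147-fold higher (62.6 to 453) on 805 reads against 5. *T* was 647-fold higher, on 2 reads in 5C-Oct4GFP+, with an interval of 179 to 5348. The ratios of *Mixl1* and *Lhx1* also rest on 2 reads in 5C-Oct4GFP+, and were 101 (27.5 to 836) and 257 (71.2 to 2127). *Foxa2*, on 1 read there, had a ratio of 332 (59.4 to 13110), and *Cer1* was at least 1575-fold higher, taken against 3 reads in the 5C-Oct4GFP+ library. The exact 95% lower limit of the *Cer1* ratio, with 0 reads there, was 1281. The length assigned to *Foxa2* was 702 bases in 5C-Oct4GFP+ and 1932 bases in 5C-Oct4GFP+ (primed). That of *Lhx1* was 693 and 2870 bases. These lengths also enter the ratios, and the intervals do not cover them. The median difference of the 9 genes was 5.97 on log2(TPM + 1), also with the genes at 0 set to 3 reads, against 0.06 over the genes tested.

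A wider list of genes around gastrulation had 48 names, of which 47 were matched. In the primed conversion 22 of the 47 were higher and 2 lower, with 33 at 1 TPM or more in either library, against 13.7% and 16.1% of all genes tested. The higher genes included 6 of 8 endoderm genes, 6 of 8 secreted inhibitors, 3 of 4 node and notochord genes, 3 of 8 signal genes, 3 of 10 mesoderm genes and 1 of 9 streak and posterior genes. Only 6 of the mesoderm genes and 2 of the streak and posterior genes reached 1 TPM in either library. The lists were not tested against each other. *Fgf8*, the FGF ligand of the streak, rose from 0.63 to 157 TPM (249-fold, 68.7 to 2060), and *Wnt3*, the Wnt ligand that is needed for the streak to form, from 0.47 to 13.5 TPM (28.7-fold, 14.4 to 67.2). *Wnt8a*, another Wnt ligand of the streak, rose from 1.68 to 21.1 TPM. *Dkk1* and *Frzb*, which encode secreted inhibitors of Wnt signalling, went from 0.00 to 28.7 TPM and from 0.23 to 25.5 TPM. *Sp5*, a Wnt target that encodes a zinc-finger factor, was the 1 streak and posterior gene that was higher, at 13.2 against 0.43 TPM (30.8-fold, 13.0 to 96.1). *Lefty1*, an inhibitor and target of Nodal, rose from 27.1 to 564 TPM (20.8-fold, 18.1 to 24.1), whereas *Lefty2* was at 58.1 and 55.4 TPM. *Nodal* itself was at 40.3 TPM before and 70.1 TPM after conversion (1.74-fold, 1.55 to 1.95), and its co-receptor *Tdgf1* at 710 and 476 TPM, so that neither reached 2-fold. Among the endoderm genes, *Sox17* rose from 0.59 to 60.4 TPM (102-fold, 34.9 to 498), *Gata6* from 0.56 to 28.8 TPM (51.5-fold, 27.8 to 108) and the chemokine receptor gene *Cxcr4* from 1.69 to 45.1 TPM. The node and notochord genes called were *Shh*, *Noto* and *Foxd4*, each at 0.00 TPM before conversion and at 4.49, 3.33 and 1.33 TPM after it. The mesoderm genes called were *Aplnr*, at 0.00 and 6.11 TPM, *Pdgfra*, at 0.27 and 2.04 TPM, and *Tbx20*, at 0.08 and 1.25 TPM. *Kdr*, the VEGF receptor gene, was lower in the converted cells (1.28 against 4.04 TPM), as was *Bmp4* (2.71 against 14.1 TPM). The paraxial mesoderm genes *Tbx6* and *Msgn1* were at 0.67 and 0.00 TPM in the converted primed cells. The 7 visceral endoderm markers bear on *Cer1*, *Eomes*, *Foxa2*, *Lhx1* and *Sox17*, since that tissue also uses these genes. This marker list summed to 2.82 TPM before conversion and 10.5 TPM after it, with 1 and 2 of 7 above 1 TPM. *Dab2* went from 1.12 to 7.03 TPM and *Apoa1* from 0.00 to 2.31 TPM. *Amn*, *Cubn* and *Sox7* were lower after conversion, each below 1 TPM, with *Ttr* at 0.00 and *Afp* at 0.24 TPM. The part of visceral endoderm in these values was not tested. The 6 fibroblast markers moved with this comparison, from 9.55 to 66.1 TPM, and their part in it was not tested.

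The naive conversion was compared with the same starting cells. In 5C-Oct4GFP+ (naive) against 5C-Oct4GFP+ cells, *T*, *Gsc* and *Evx1* were higher and *Eomes* was lower, against 10.0% of 14863 genes higher and 17.5% lower. The other 5 members did not reach 1 TPM in either library. *T* rose from 0.24 to 14.5 TPM, on 2 and 115 reads (60.4-fold, 16.3 to 505). *Gsc* rose from 0.73 to 6.20 TPM (8.49-fold, 3.31 to 27.8) and *Evx1* from 1.43 to 6.08 TPM (4.25-fold, 2.48 to 7.70). *Eomes* fell from 7.49 to 0.97 TPM, a 7.72-fold lower level (4.60 to 13.9). The T-box genes *T* and *Eomes* thus differed in direction. The median difference of the 9 genes was 0.15, or 0.15 with genes at 0 set to 3 reads, against -0.10 over the genes tested.

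In the wider list, 5 of the 9 streak and posterior genes were higher in the naive library and none was lower, while 1 of the other 38 genes was higher and 4 were lower. These 5 were all of the 9 that reached 1 TPM in either library. Over the whole list, 24 of 47 genes reached 1 TPM, 6 were higher and 4 lower, against 10.0% and 17.5% of all genes tested. *Sp5* rose from 0.43 to 150 TPM (348-fold, 149 to 1073), and *Cdx1*, a posterior homeobox gene, from 0.73 to 69.3 TPM (94.9-fold, 45.8 to 237). *Axin2*, a general target and inhibitor of Wnt signalling, rose from 4.98 to 105 TPM (21.1-fold, 17.2 to 26.2). *Wnt3* was at 0.42 TPM and *Wnt8a* at 3.42 TPM in these cells, and *Fgf8* at 1.52 TPM. *Dkk1*, at 4.89 against 0.00 TPM, was the 1 other gene that was higher, so that *Sp5* and *Dkk1* were counted as higher in both conversions. The lower genes were *Foxj1*, which encodes a regulator of cilia in the node (0.75 against 33.9 TPM), *Kdr* (0.40 against 4.04 TPM), *Chrd* (0.44 against 3.57 TPM) and *Tdgf1* (233 against 710 TPM). The plot of companion genes sets 6 genes of the wider list beside *T*, and they were picked after their values were seen.

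**Figure D3:**
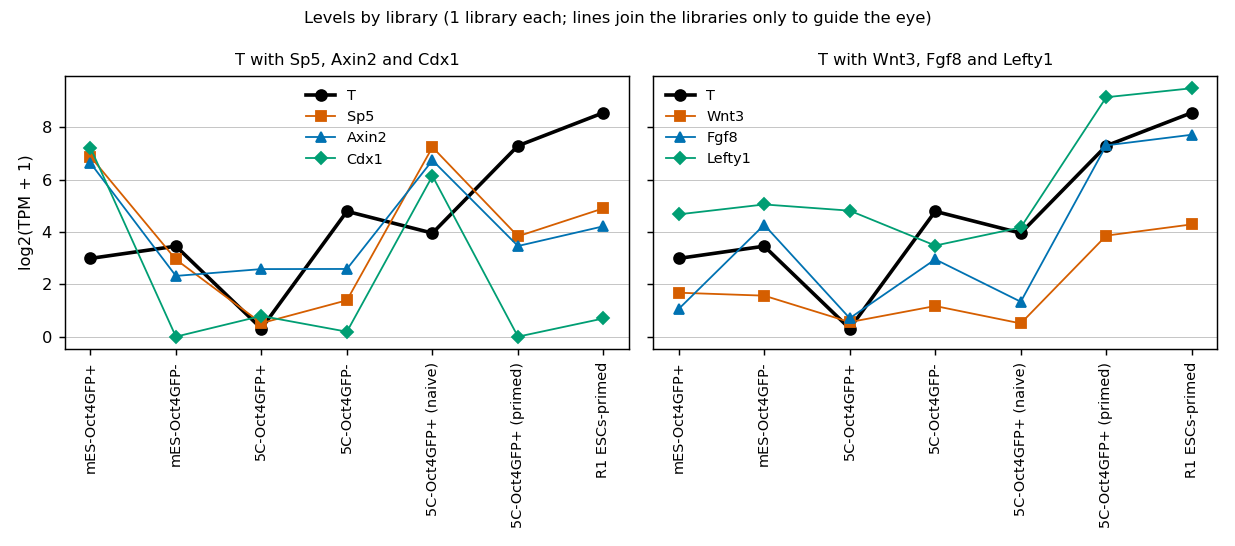
Level of *T* (black) as log2(TPM + 1) in the 7 libraries, with *Sp5*, *Axin2* and *Cdx1* on the left and *Wnt3*, *Fgf8* and *Lefty1* on the right. Each point is 1 library and the lines only guide the eye. *Sp5*, *Axin2* and *Cdx1* are highest in mES-Oct4GFP+ and naive cells, where *T* is at 6.93 and 14.5 TPM, and *Wnt3*, *Fgf8* and *Lefty1* are highest in the 2 primed libraries, where *T* is at 155 and 374 TPM.

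Set against each other, the primed and naive cells of common origin differed in 8 of the 9 members. *T*, *Eomes*, *Mixl1*, *Gsc*, *Foxa2*, *Cer1* and *Lhx1* were higher in the primed cells and *Evx1* was lower, against 22.2% of 15249 genes higher and 16.7% lower. This comparison shares its libraries with both before it. *T* was 10.7-fold higher (8.87 to 13.1), the smallest ratio of the 7, and *Gsc* 17.3-fold (12.3 to 25.0). *Eomes* was 83.7-fold higher (51.4 to 147), *Mixl1* 55.5-fold (18.8 to 271, on 3 reads in naive cells) and *Lhx1* 196-fold (67.0 to 951, on 3 reads). The length assigned to *Lhx1* was 949 bases in naive and 2870 bases in primed cells, which also enters its ratio. *Cer1* had a ratio of 1911 (542 to 16181, on 2 reads) and *Foxa2* of 754 (135 to 29796, on 1 read). *Evx1* was 5.63-fold lower (3.36 to 9.89) in primed cells. The median difference was 3.91 for the members and 0.14 over the genes tested. In the wider list 22 of 47 genes were higher and 6 lower, with 36 at 1 TPM or more, against the same 22.2% and 16.7%. The lower ones included 5 of the 9 streak and posterior genes, with none of these 9 higher. *Sp5* was 11.3-fold lower (9.62 to 13.3) and *Axin2* 10.5-fold lower (9.02 to 12.3) in the primed cells, although *T* was higher there.

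The converted primed cells were compared with R1 ESCs-primed, primed cells that had never been fibroblasts. *Cer1* was higher and *T*, *Mixl1* and *Evx1* were lower, against 2.30% of 14600 genes higher and 5.09% lower. In all, 4 of the 9 members were counted as different. *Cer1* was 2.78-fold higher (2.61 to 2.97) on 5208 and 1144 reads. *T* was 2.41-fold lower (2.26 to 2.57) and *Mixl1* 2.27-fold lower (1.90 to 2.70). *Evx1* was 4.70-fold lower (2.73 to 8.44), at 19 against 51 reads. *Eomes* (1.42-fold lower, 1.32 to 1.52), *Foxa2* (1.28-fold lower, 1.16 to 1.40), *Gsc* and *Lhx1* were within 2-fold, although their intervals also excluded equal levels. The median difference was -0.35 for the members and -0.03 over the genes tested. With 1 library on each side, a difference between lines and a difference between cultures cannot be told apart.

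The wider list had 1 gene higher and 7 lower in this comparison, with 37 of 47 at 1 TPM or more, against 2.30% and 5.09% of all genes tested. Of the 7 lower genes 4 were streak and posterior genes. *Sp5* was at 13.2 against 28.9 TPM and *Cdx2*, a posterior homeobox gene, at 0.07 against 3.45 TPM. *Nkx1-2* (0.95 against 4.89 TPM), *Sp8* (0.50 against 3.01 TPM), *Etv2* (0.49 against 4.80 TPM), *Bmp4* (2.71 against 8.44 TPM) and *Fst* (32.5 against 74.3 TPM) were the other lower genes. *Nodal* (70.1 and 77.0 TPM), *Fgf8* (157 and 208 TPM), *Wnt3* (13.5 and 18.5 TPM) and *Lefty1* (564 and 715 TPM) were within 2-fold. *Lefty2* was the gene that was higher, at 55.4 against 21.5 TPM. *Sox17* was at 60.4 and 35.3 TPM and *Gata6* at 28.8 and 18.1 TPM, also within 2-fold. Fibroblast markers, 6 genes in all, moved with this comparison, at 66.1 TPM in the converted cells and 183 TPM in R1 ESCs-primed, and their part in it was not tested.

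On day 15, the media were compared in reporter-positive cells. In 5C-Oct4GFP+ against mES-Oct4GFP+ cells, *Eomes* was higher and *T* and *Gsc* were lower, against 13.7% of 15196 genes higher and 13.5% lower. Of the 9 members, 5 reached 1 TPM in either library. *Eomes* was at 7.49 against 0.60 TPM, on 146 and 7 reads (12.5-fold, 5.91 to 31.6). *T* was at 0.24 against 6.93 TPM, on 2 and 32 reads, and so 28.9-fold lower (7.37 to 249). *Gsc*, on 5 and 21 reads, was 7.23-fold lower (2.65 to 24.6). The median difference of the members was -0.75, or -0.39 with genes at 0 set to 3 reads, against -0.06 over the genes tested. In the wider list 7 of 47 genes were higher and 9 lower, with 29 at 1 TPM or more, against the same 13.7% and 13.5%. The lower ones included 5 of the 9 streak and posterior genes. *Sp5* was 271-fold lower (116 to 836), *Cdx1* 202-fold lower (97.7 to 504) and *Axin2* 19.7-fold lower (16.0 to 24.5) in 5C-Oct4GFP+ cells, along with *T*. *Tdgf1* was 3.10-fold higher (2.93 to 3.28), and *Nodal* was at 40.3 against 34.9 TPM. *Foxj1* was at 33.9 against 0.59 TPM.

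The same media were compared in reporter-negative cells. In 5C-Oct4GFP- against mES-Oct4GFP- cells, *T* was higher and *Eomes*, *Cer1* and *Lhx1* were lower, against 9.68% of 15859 genes higher and 10.1% lower. *T* was at 26.6 against 9.96 TPM (2.67-fold, 2.02 to 3.57). *Eomes* was 2.92-fold lower (2.09 to 4.15), *Cer1* 9.82-fold lower (6.45 to 15.6) and *Lhx1* 5.66-fold lower (3.60 to 9.37). *Foxa2* was at 6.22 against 7.54 TPM, within 2-fold. *Gsc* was at 1.18 against 3.23 TPM, 2.74-fold lower (1.03 to 8.48), and fell short of the rule with a difference of -0.96 on log2(TPM + 1). With a pseudocount of 0.1 or at 1.5-fold *Gsc* was also counted as lower. The median difference was -0.50 for the members and 0.03 over the genes tested. The wider list had 3 of 47 genes higher and 20 lower, with 40 at 1 TPM or more, against the same 9.68% and 10.1%. The lower genes included 6 of 8 endoderm genes and 5 of 10 mesoderm genes. *Hand1*, a gene of mesoderm and trophoblast, was at 0.27 against 42.6 TPM. *Gata4* was at 2.48 against 33.0 TPM, *Prdm1* at 2.78 against 26.3 TPM, *Sox17* at 2.57 against 18.2 TPM and *Gata6* at 2.10 against 10.5 TPM. The genes that were higher were *Cxcr4* (36.7 against 6.91 TPM), *Foxj1* (50.2 against 16.7 TPM) and *Nkx1-2* (5.12 against 0.07 TPM).

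Markers of other tissues moved with this comparison. The 6 fibroblast markers summed to 236 TPM in 5C-Oct4GFP- cells, against 481 TPM in the mES-Oct4GFP- library. The 7 markers of primitive and visceral endoderm summed to 237 TPM in mES-Oct4GFP- cells, with all 7 above 1 TPM, and to between 2.03 and 14.7 TPM in the other 6 libraries. Among them *Apoa1* was at 61.3, *Ttr* at 36.0 and *Afp* at 19.2 TPM in mES-Oct4GFP- cells, and at 0.00, 0.20 and 0.00 TPM in 5C-Oct4GFP- cells. The 6 trophoblast markers summed to 278 TPM in mES-Oct4GFP- cells, with all 6 above 1 TPM, and to between 14.6 and 96.4 TPM elsewhere. *Cer1*, *Eomes*, *Foxa2*, *Lhx1*, *Sox17* and *Gata6* are also genes of visceral endoderm, and *Eomes* of trophoblast, and the part of such cells in these values was not tested. In 5C-Oct4GFP- cells, where *T* was higher, the visceral endoderm list was at 13.1 TPM with 2 of 7 markers above 1 TPM.

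**Figure D4:**
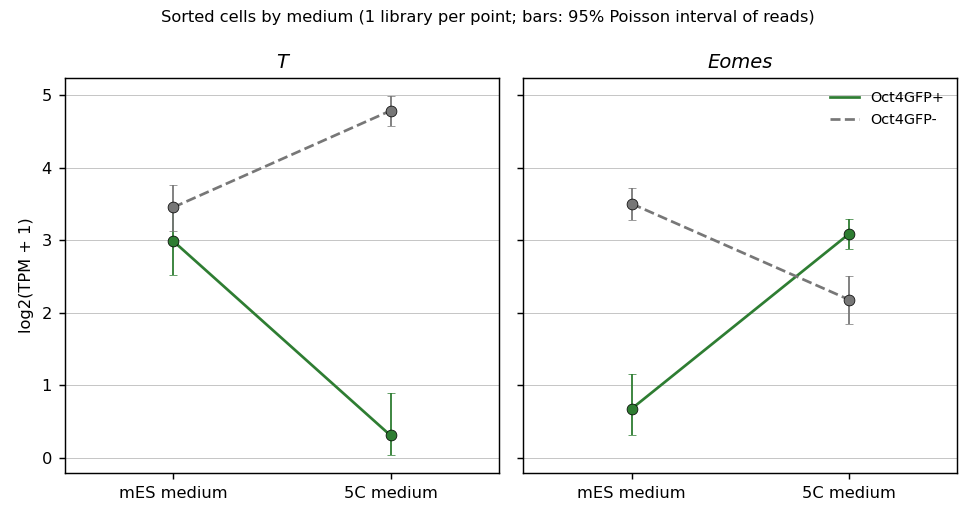
*T* (left) and *Eomes* (right) as log2(TPM + 1) in the 4 day 15 libraries, by medium, with Oct4GFP+ cells as solid and Oct4GFP- cells as dashed lines. Each point is 1 library and the bars are 95% Poisson intervals of the read count. From mES to 5C medium *T* goes from 6.93 to 0.24 TPM in Oct4GFP+ and from 9.96 to 26.6 TPM in Oct4GFP- cells, so that its lines part, and the lines of *Eomes* cross.

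The reporter fractions were also compared within each medium. In 5C-Oct4GFP+ against 5C-Oct4GFP- cells, no member was higher and *T*, *Foxa2* and *Cer1* were lower, against 8.45% of 15675 genes higher and 22.6% lower. *T* was 111-fold lower (30.2 to 921) on 2 reads, *Foxa2* 24.9-fold lower (4.28 to 1001) on 1 read, and *Cer1* at least 10.7-fold lower, taken against 3 reads in the 5C-Oct4GFP+ library (exact 95% lower limit 8.06). The length assigned to *Foxa2* was 702 bases in 5C-Oct4GFP+ and 1997 bases in 5C-Oct4GFP- cells, which also enters its ratio. *Eomes* was at 7.49 against 3.54 TPM, a ratio of 2.12 (1.51 to 3.01) that fell short of the rule with a difference of 0.90 on log2(TPM + 1), and other scalings placed it past the rule. The median difference was -0.33 for the members and -0.25 over the genes tested. In the wider list 7 of 47 genes were higher and 14 lower, with 35 at 1 TPM or more, against the same 8.45% and 22.6%. *Nodal* was 8.48-fold higher (6.16 to 12.0) and *Tdgf1* 12.7-fold higher (11.6 to 14.0) in the Oct4GFP+ cells, in which *T*, *Fgf8* (0.63 against 6.74 TPM) and *Sox17* (0.59 against 2.57 TPM) were lower. *Shh*, the hedgehog ligand of the node and notochord, was at 0.00 against 11.6 TPM, and *Cxcr4* at 1.69 against 36.7 TPM. Marker lists of other cells moved with this comparison. The 6 fibroblast markers were at 9.55 against 236 TPM, the 4 neural markers at 47.4 against 108 TPM and the 7 visceral endoderm markers at 2.82 against 13.1 TPM, with 1 and 2 of these 7 above 1 TPM. Their part in the result was not tested.

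In mES-Oct4GFP+ against mES-Oct4GFP- cells, no member was higher and *Eomes*, *Foxa2*, *Cer1* and *Lhx1* were lower, against 17.9% of 16294 genes higher and 28.8% lower. *Cer1* was 46.1-fold lower (17.8 to 171), *Lhx1* 45.5-fold lower (15.3 to 223), *Eomes* 17.2-fold lower (8.16 to 43.6) and *Foxa2* 6.28-fold lower (2.99 to 15.2). *T* was at 6.93 against 9.96 TPM and *Gsc* at 5.28 against 3.23 TPM, with intervals of the ratio that included equal levels (0.44 to 1.07 and 0.82 to 3.30). The median difference was -0.47 for the members and -0.15 over the genes tested. The wider list had 7 of 47 genes higher and 23 lower, with 39 at 1 TPM or more, against the same 17.9% and 28.8%. The lower genes included 6 of 8 endoderm genes, 6 of 8 inhibitors and 6 of 10 mesoderm genes, and the higher ones 5 of 9 streak and posterior genes. *Sp5* was 17.4-fold higher (13.3 to 23.0) and *Axin2* 24.6-fold higher (19.1 to 32.4) in mES-Oct4GFP+ cells. *Hand1* was at 0.17 against 42.6 TPM and *Gata4* at 0.80 against 33.0 TPM. The 6 fibroblast markers were at 9.18 against 481 TPM. The 4 neural markers went the other way, at 94.4 against 31.95 TPM, of which *Tubb3* made up 91.7 and 23.7 TPM. The visceral endoderm and trophoblast markers given above, at 6.15 and 96.4 TPM in mES-Oct4GFP+ against 237 and 278 TPM in mES-Oct4GFP- cells, moved with this comparison too, and their part in it was not tested. *Tfap2c*, a trophoblast marker that pluripotent cells also express, made up 86.9 of the 96.4 TPM in mES-Oct4GFP+ cells.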

How the data were processed

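RNA was taken up in TRIzol, and TruSeq RNA libraries were sequenced on an Illumina MiSeq. The authors used Bowtie and RSEM, with the mm10 build in the submitters' processing notes, and versions are not given in the sources used here. The deposited values include estimated counts per Ensembl gene from RSEM, without normalization. The deposited TPM was computed by the authors from the count per effective length, with an equal total in all libraries. The deposited FPKM, scaled to mapped fragments, served only as an alternative. Symbols matched 28756 of 29267 identifiers, and coordinates are from GENCODE M21.

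Library totals were 6108252 (mES-Oct4GFP+), 8821887 (mES-Oct4GFP-), 10443952 (5C-Oct4GFP+), 8346747 (5C-Oct4GFP-), 8233480 (naive), 11496615 (primed) and 7188043 (R1 ESCs-primed). With 1 library per group, 8 pairs were compared as differences of log2(TPM + 1) with a pseudocount of 1, counted at 2-fold where either library had 1 TPM or more, and no p-value was computed. Ratios have exact Clopper-Pearson 95% intervals and levels exact Poisson 95% intervals, from counts rounded to whole numbers. A library without reads was set to 3 reads for a bound. Members and lists were chosen with earlier results of these data known. Named were all members, the 2 most similar genes of each member with at least 5 TPM, some of the up to 3 genes with the largest called difference per role and comparison of the wider list, and *Nodal*, *Tdgf1*, *Wnt3*, *Fgf8*, *Lefty1*, *Lefty2*, *Sp5*, *Axin2*, *Sox17* and *Gata6*. Other genes of the lists were named after their values were seen. The calls and intervals were tested on simulated counts that varied by counting error alone, which says nothing on the spread between cultures. Calls were tested there only on genes with many reads. Alternatives were a pseudocount of 0.1, a minimum of 5 TPM or none, 1.5-fold, a 2-fold difference with an interval that excludes equal levels, median-ratio rescaling, CPM and FPKM. The tools were scipy 1.17.1, pandas 2.3.3 and numpy 2.4.6 under Python 3.11.15, and figures were drawn with matplotlib 3.10.9.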

Additional observations from a re-analysis of the deposited data

Results flagged for a closer look

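Between mES and 5C medium, *T* and *Eomes* moved in opposite directions in the 2 reporter fractions. *T* differed by -2.68 on log2(TPM + 1) in Oct4GFP+ cells and by 1.33 in Oct4GFP- cells, a gap of -4.01, and the level in 5C-Oct4GFP+ cells rests on 2 reads. *Eomes* differed by 2.41 in Oct4GFP+ and by -1.32 in Oct4GFP- cells, a gap of 3.73. With 1 library per point neither gap was tested.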

How the results depend on the processing

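Of 128 recomputed counts of members, 123 were within 1.5 times the reported count. The exceptions were all counts of higher genes in 5C-Oct4GFP+ cells. Against mES-Oct4GFP+ the count went from 1 to 2 with a pseudocount of 0.1, which added *Evx1*. Against 5C-Oct4GFP- it went from 0 to 2 with a pseudocount of 0.1 or at 1.5-fold (*Eomes* and *Evx1*), and to 1 with median-ratio rescaling or CPM, counts scaled to the library total (*Eomes*). Of 288 recomputed differences of single members, 3 changed sign, all with CPM and none of them a called difference: *Evx1* in the primed conversion (-0.22 to 0.01), *Foxa2* in the naive conversion (-0.17 to 0.03) and *Lhx1* between 5C-Oct4GFP+ and mES-Oct4GFP+ cells (0.28 to -0.32). Median-ratio factors ran from 0.889 (naive) to 1.13 (5C-Oct4GFP-). Depth limits the low levels: in 5C-Oct4GFP+ cells *T*, *Mixl1*, *Foxa2*, *Lhx1* and *Cer1* held 0 to 2 reads, so the size of their ratios is uncertain. No paired analysis was possible because each group is 1 library.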
